A study of Mus musculus with 9 samples.

Results

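DNA replication genes were followed by RNA sequencing in LT-HSCs, long-term haematopoietic stem cells, the rarely dividing cells at the top of the blood lineage, which were sorted from marrow of C57BL/6 mice. The 41 genes were chosen by symbol, as genes of the replication machinery and of S phase. All 41 are among the 21939 genes of the table, and all 41 were among the 15127 genes with enough counts to be tested. The 9 libraries form 3 groups of 3: cells of mice over 80 weeks old kept with the RhoA inhibitor Rhosin at 100 µM (aged+Ri), cells of mice of that age without inhibitor (aged), and cells of mice of 10 to 16 weeks without inhibitor (young). RhoA is a small GTPase that controls actin and cell tension. The sort took lineage-negative cells that carried Sca1 and cKit and lacked CD34 and Flt3. All 3 groups then spent 16 h at 37 °C in HBSS, a buffered salt medium, to which 10% serum was added, under 3% oxygen and 5% CO2, before RNA was taken, so no group is of freshly sorted cells. Biological replicates is what the labels call the 3 libraries of a group, and they give no number of mice for a library. The p-values therefore set differences between groups against the spread between these libraries, not between known numbers of mice. The labels add a sequencing batch for each library: aged+Ri 1 and aged 1 were in batch 1, aged+Ri 2, aged+Ri 3, aged 2 and young 2 in batch 2, aged 3 and young 3 in batch 3, and young 1 in batches 1 and 3.

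Before a cell can copy its genome, the origin recognition complex, Cdc6 and Cdt1 load the Mcm helicase onto DNA during G1, the gap between mitosis and S phase. At the start of S phase Cdc45 and the GINS complex switch the helicase on. Primase and the polymerases start and extend new strands, the extension running on the sliding clamp Pcna. Enzymes such as ribonucleotide reductase and thymidylate synthase supply the deoxynucleotides. Many of these genes are transcribed under E2F factors when the retinoblastoma block is lifted by cyclin-dependent kinases, and most LT-HSCs in the marrow rest outside the cycle.

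Promoter letters of the genes were read from a reference. RefSeq windows on GRCm38.p6, from 250 bases before to 50 bases after a gene's start, were found for 33 of the 41 genes. No window was found for Mcm4, Gins1, Gins2, Gins4, Prim2, Pole, Rfc2 and Ccne2. The E2F letters TTTCCCGC, TTTCGCGC, TTTGCCGC or TTTGGCGC, searched on both strands, stood in a window of 12 of the 33 genes (36.4%), against 510 of the 11875 tested genes with a window (4.29%) and 704 of all 27025 genes with one (2.6%). These 12 were Mcm3, Mcm5, Mcm6, Mcm7, Orc1, Cdc6, Cdt1, Gins3, Pola1, Pold1, Rfc3 and Lig1. The letters CCAAT, on either strand, stood in 60.6% of the 33 genes, against 42.9% of tested genes and 41.1% of all genes with a window. Windows differ in base composition, with a median of 61.3% G and C for the 33 genes, 59.7% for tested genes and 52.7% for all. Of 44 other replication genes with a window, 16 held the E2F letters, again 36.4%, and 47.7% held CCAAT. A match is a description of the letters and does not show that a factor binds there. The 6 stretches printed here hold no annotated exon. The first 4 carry E2F matches of helicase, licensing and polymerase genes, and the last 2 belong to deoxynucleotide genes whose levels are described further on and hold none. Each is 150 bases on the gene's own strand, in lower case, with E2F and CCAAT matches of either strand in capitals and overlapping matches run together. The Cdc6 stretch lies before the start used for its window, but inside the gene as annotated by GENCODE, which begins at position 98907801. Mcm6 (chr1:128359706-128359855, minus strand), Mcm5 (chr8:75109359-75109508, plus strand), Cdc6 (chr11:98908001-98908150, plus strand), Pola1 (chrX:93632156-93632305, minus strand), Rrm1 (chr7:102441545-102441694, plus strand) and Tyms (chr5:30073626-30073775, minus strand) read as follows.
Mcm6: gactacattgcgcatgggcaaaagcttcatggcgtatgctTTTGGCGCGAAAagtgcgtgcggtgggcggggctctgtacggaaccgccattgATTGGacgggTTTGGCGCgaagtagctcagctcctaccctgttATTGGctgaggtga
Mcm5: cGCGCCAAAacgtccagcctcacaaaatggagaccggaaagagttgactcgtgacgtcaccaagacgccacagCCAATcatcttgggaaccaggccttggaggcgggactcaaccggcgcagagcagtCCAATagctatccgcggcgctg
Cdc6: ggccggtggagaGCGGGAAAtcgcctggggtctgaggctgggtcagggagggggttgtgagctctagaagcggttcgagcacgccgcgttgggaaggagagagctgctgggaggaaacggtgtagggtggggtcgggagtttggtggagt
Pola1: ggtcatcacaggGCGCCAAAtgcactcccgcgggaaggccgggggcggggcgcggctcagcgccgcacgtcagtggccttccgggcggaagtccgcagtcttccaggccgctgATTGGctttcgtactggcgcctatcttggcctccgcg
Rrm1: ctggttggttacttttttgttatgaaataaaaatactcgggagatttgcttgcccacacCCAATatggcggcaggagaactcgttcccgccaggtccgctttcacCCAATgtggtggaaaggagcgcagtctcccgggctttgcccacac
Tyms: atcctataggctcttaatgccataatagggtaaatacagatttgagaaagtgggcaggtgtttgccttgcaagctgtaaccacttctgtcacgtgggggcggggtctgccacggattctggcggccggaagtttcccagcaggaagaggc

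The libraries held between 34358101 and 72503142 counts, and levels are given as CPM, that is, per unit of library size as set by the trimmed mean of M-values (TMM). A count was found for 15117 to 16333 genes in aged+Ri, 15024 to 17987 in aged and 20129 to 21213 in young. Mitochondrial genes took 1.57% to 2.56% of the counts in aged+Ri, 2.57% to 3.54% in aged and 4.14% to 4.68% in young, with no overlap between the 3 groups. All 13 markers of LT-HSC identity had counts in every library, and their summed level was 1401 to 2511 CPM in aged+Ri, 2151 to 2875 in aged and 2024 to 3344 in young. Of the 8 lists of markers of other cells, 6 had lower sums in every aged+Ri library than in any aged one. The 3 genes Cd34, Flt3 and Cd48, whose proteins mark progenitors rather than LT-HSCs, had counts in all 9 libraries and summed to 10.8 to 36.7 CPM in aged+Ri, 82.1 to 129.5 in aged and 96.7 to 201.2 in young. The 14 myeloid markers summed to 73.4 to 122.9 CPM in aged+Ri, 472 to 10480 in aged and 1119 to 3781 in young; of these 14, Cebpe and Ly6g were at 0 in all 3 aged+Ri libraries. The 7 lymphoid progenitor markers summed to 18.1 to 82.6 CPM in aged+Ri, 40.1 to 345 in aged and 67.5 to 1686 in young, with the highest value in young 3. The 12 measured markers of mature T, NK and B cells summed to 14.1 to 105.9 CPM in aged+Ri, 146 to 654 in aged and 110.6 to 789 in young, and Cd8a and Gzmb were at 0 in all 3 aged+Ri libraries. The 7 mast cell and basophil markers summed to 0 to 5.34 CPM in aged+Ri, 30.3 to 274 in aged and 2.93 to 141 in young. The 7 megakaryocyte markers summed to 37.9 to 230.4 CPM in aged+Ri, 295 to 572 in aged and 126 to 302 in young, and the 8 stromal and endothelial markers to 37.6 to 139 CPM in aged+Ri, 149 to 234 in aged and 72.5 to 118 in young. The 12 erythroid markers did not share this order, with 2064 to 3021 CPM in aged+Ri, 1861 to 2836 in aged and 1248 to 2585 in young. The part of these markers, of the number of genes found and of the mitochondrial share in the values of the replication genes was not tested. In such bulk samples, fewer cells in S phase and less RNA of these genes per cell cannot be told apart.

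None of the 41 genes passed an adjusted p of 0.05 in any comparison by edgeR's quasi-likelihood test. DESeq2 passed 2 of the 41 in aged against young, where it passed 744 of all 15127 genes. In aged+Ri against aged it passed 0 of the 41 and 320 of all genes. In aged+Ri against young it passed 4 of the 41 and 1862 of all genes. The summed level of the 41 genes overlapped between the groups. Together the 41 genes took 0.135% to 0.173% of all counts in aged+Ri, 0.12% to 0.174% in aged and 0.132% to 0.147% in young. Their summed level was 1549 ± 291 CPM in aged+Ri, 1419 ± 206 CPM in aged and 1383 ± 94.5 CPM in young (SD, n = 3 each), and the ranges of the 3 groups overlap. Slbp alone held a mean of 282 CPM of this sum in aged+Ri, 165 in aged and 97.7 in young. The level varied between libraries of the same group. The level of a gene in a library was compared with its mean over the 9 libraries, as log2(CPM + 0.125). The median over the 41 genes was -0.20, -0.05 and 0.55 in the 3 aged+Ri libraries, -0.09, 0.08 and 0.22 in the 3 aged libraries and 0.06, -0.03 and 0.46 in the 3 young libraries. Over all tested genes the median was between -0.01 and 0.11 in the aged+Ri and aged libraries and between 0.22 and 0.31 in the young ones. Of the 41 genes, 11 had their highest level in aged+Ri 3 and 9 in young 3, and 10 had their lowest in aged+Ri 1 and 8 in young 1.

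**Figure D1:**
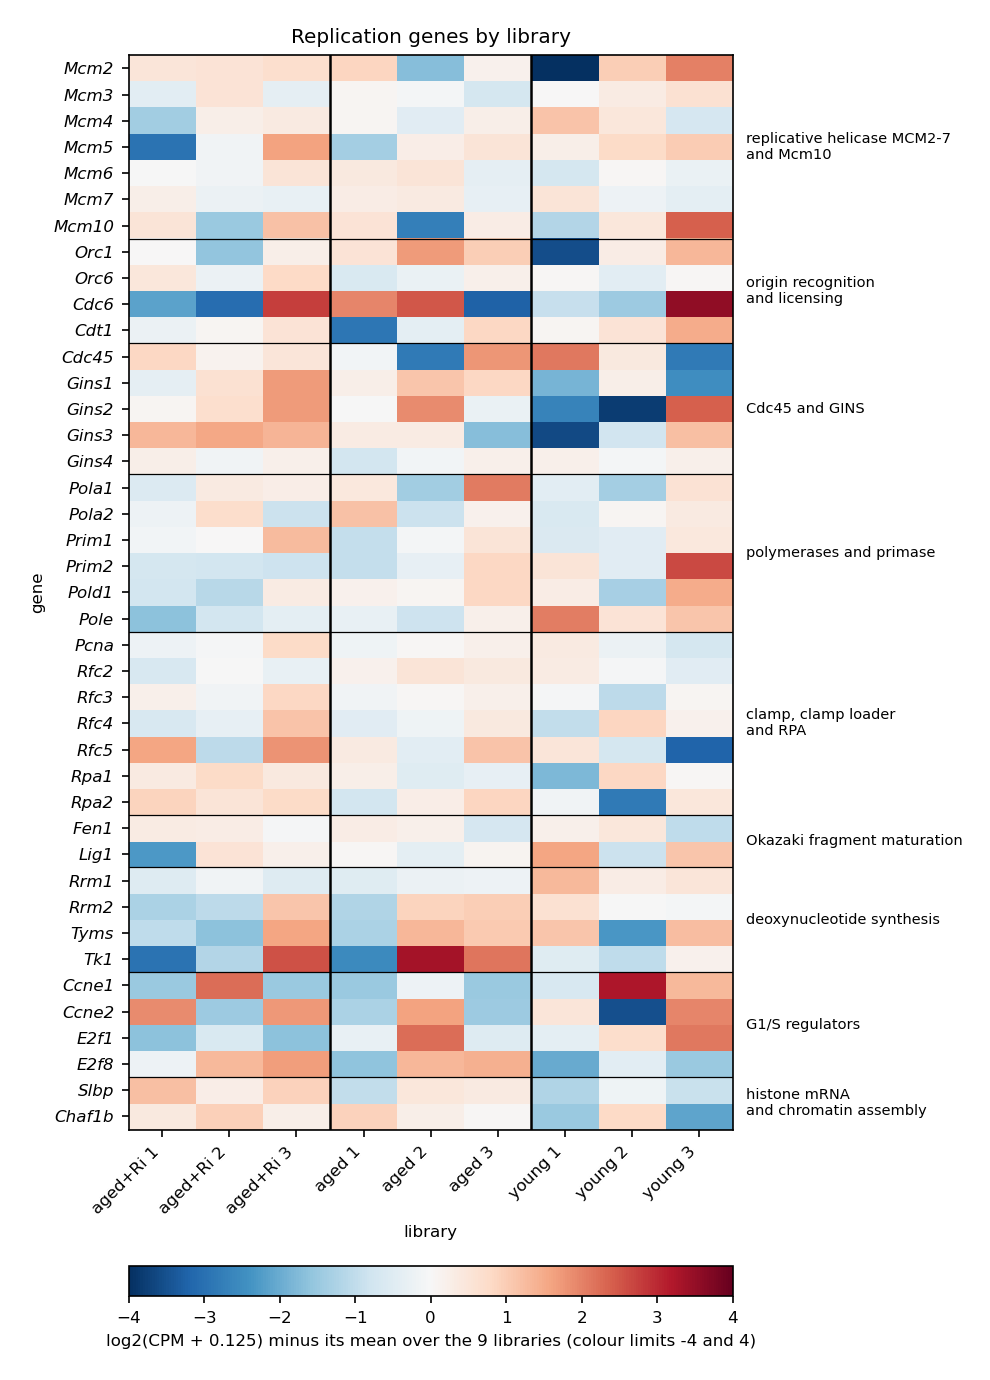
Each row is 1 of the 41 replication genes, grouped by role, and each column 1 of the 9 libraries; colour gives log2(CPM + 0.125) minus the gene's mean over the 9 libraries, with colour limits at -4 and 4. Columns differ within each group, with aged+Ri 3 and young 3 holding the highest value of 11 and 9 of the genes.

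The levels spanned 0.632 CPM, the mean of Ccne1 over the 9 libraries, to 184 CPM, that of Rfc2. A mean under 10 CPM was found for 12 genes, 10 to 50 CPM for 20, and over 50 CPM for 9. Read per kilobase of annotated exon, Gins4, a GINS subunit, was highest at 65.6 ± 8.91 CPM per kb in aged+Ri, 53.9 ± 16.4 in aged and 65.7 ± 7 in young (SD, n = 3 each). The length joins all annotated exons of a gene, 1349 bases for Gins4 and 6956 for Mcm2, so the order depends on the annotation. Of the genes named here, Rfc4, Rfc2, Orc6, Mcm7 and Tk1 also share exon bases with another measured gene. Over all 9 libraries it averaged 61.7 CPM per kb, ahead of the clamp Pcna at 51.3, the clamp loader subunit Rfc4 at 42.2, Slbp at 29.9, Rfc2 at 29.2 and Orc6 at 25.7. The levels of these neighbours in the order overlap in every group for Gins4 and Pcna, and likewise for Pcna and Rfc4. The 6 subunits of the Mcm hexamer, which stand in equal number in the complex, ran in RNA from 2.79 CPM per kb for Mcm2 to 19.9 for Mcm7. At the low end stood the cell cycle regulators Ccne1 at 0.238 and E2f1 at 0.243 CPM per kb, and thymidine kinase Tk1 at 0.462.

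No helicase gene came near the threshold, and those at low levels differed much between libraries of a group. Mcm7, the most abundant of them, had 102, 72.6 and 69.6 CPM in aged+Ri, 106.5, 111 and 68.1 in aged and 123, 74.8 and 65.8 in young. The 3 groups of Mcm7 values overlap. Mcm6, another hexamer subunit, ran from 64.4 to 100.5 CPM in aged+Ri, 55.6 to 101 in aged and 43.9 to 73.8 in young. Mcm2 had 17.7, 18.6 and 20.3 CPM in aged+Ri, 22.8, 3.83 and 14.1 in aged and 0.647, 25.1 and 51.5 in young, so that young alone holds both its lowest and its highest library, 79.6-fold apart. Mcm5 ranged from 1.21 CPM in aged+Ri 1 to 31.7 CPM in aged+Ri 3. Mcm10, which helps to start the loaded helicase, ranged from 0.470 CPM in aged 2 to 20.9 CPM in young 3. Mcm3 and Mcm4 lay between 9.57 and 60.9 CPM in every library. For the 7 genes the median log2 change was -0.55 in aged against young, 0.20 in aged+Ri against aged and -0.36 in aged+Ri against young, and their smallest adjusted p in any of the 3 was 0.528 (edgeR, quasi-likelihood, adjusted by Benjamini-Hochberg).

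Origin licensing and helicase activation showed the same contrast between steady and scattered genes. Orc6, a subunit of the origin recognition complex, had 82.9, 51.8 and 105 CPM in aged+Ri, 39.9, 50.2 and 69.7 in aged and 63.5, 45.9 and 63.01 in young, and its groups overlap. Orc1, the subunit that binds ATP together with Cdc6 during loading, had 3.06, 0.916 and 3.56 CPM in aged+Ri, 4.48, 10.1 and 5.99 in aged and 0.141, 3.72 and 7.73 in young. All 3 aged+Ri values of Orc1 lie under all 3 aged values, while young spans both. Cdc6, the loading ATPase, had 5, 1 and 279 counts in aged+Ri, 324, 358 and 0 in aged and 24, 12 and 472 in young. Its 5 low libraries hold 24 counts or fewer and its 4 high ones 279 or more, and each group has both kinds. Cdt1, its loading partner, ran from 1.12 CPM in aged 1 to 25.6 CPM in young 3. Gins4 had 96.2, 74.6 and 94.7 CPM in aged+Ri, 49.3, 75.3 and 93.4 in aged and 93.3, 77.8 and 94.9 in young. It had the smallest spread within groups of the 41 genes, with an SD of 0.309 on the log2 scale, and only aged 1 stood apart. Gins3 had 6.09, 7.12 and 6.24 CPM in aged+Ri, 3.02, 2.98 and 0.636 in aged and 0.0809, 1.35 and 5.56 in young, and its aged+Ri values lie above all others. Gins1 had 2.95, 5.80 and 12.6 CPM in aged+Ri, 4.45, 8.28 and 6.88 in aged and 0.950, 4.44 and 0.570 in young, and every aged value lies above every young one. Neither Gins3 nor Gins1 passed the test, with adjusted p-values of 0.822 for Gins3 in aged+Ri against aged and 0.453 for Gins1 in aged against young (edgeR, quasi-likelihood).

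Among the polymerases and primase, Pole and Prim2 were the genes whose aged+Ri levels were lowest relative to young. Pole, the catalytic subunit of the leading-strand polymerase epsilon (chromosome 5, 110286306 to 110337474, plus strand, GRCm38), had 6.20, 11.6 and 14.7 CPM in aged+Ri, 15.8, 10.8 and 22.6 in aged and 80.2, 28.8 and 41.7 in young. All 3 young values lie above all 6 values of the aged mice, and young 1 is the highest. The log2 change was -1.61 ± 0.59 (SE) in aged against young, adjusted p = 0.231, and -2.21 ± 0.60 in aged+Ri against young, adjusted p = 0.0759, in edgeR's quasi-likelihood test. Within sequencing batch 2, with 1 library per group for aged and young, the change of Pole in aged against young was -1.41, and in batch 3 it was -0.88; for aged+Ri against young within batch 2 it was -1.14.

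Prim2, the large primase subunit (chromosome 1, 33453810 to 33669795, minus strand), had 12.2, 12.02 and 11.3 CPM in aged+Ri, 10.2, 15.97 and 35.9 in aged and 28.4, 14.6 and 126.5 in young. The aged+Ri values all lie below the young ones, and young 3 alone exceeds 100 CPM. Its log2 change in aged+Ri against young was -2.26 ± 0.76, adjusted p = 0.115 by edgeR's quasi-likelihood test. Without young 3 that value was -0.85, and within batch 2 it was -0.32. In aged against young, Prim2 stood at -1.45 in the fit of all libraries and at 0.13 within batch 2. Prim1, the catalytic primase subunit, had 25.4, 27.7 and 65.8 CPM in aged+Ri, 13.9, 25.7 and 39.1 in aged and 18.1, 19.8 and 36.3 in young. Its groups overlap, with aged+Ri 3 highest. Of the other 3 genes of this role, Pola1 ran from 3.87 to 43.4 CPM, Pola2 from 6.38 to 26.7 CPM and Pold1, the catalytic subunit of the lagging-strand polymerase delta, from 3.72 to 26.6 CPM, and no pair of groups was apart for any of them.

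**Figure D2:**
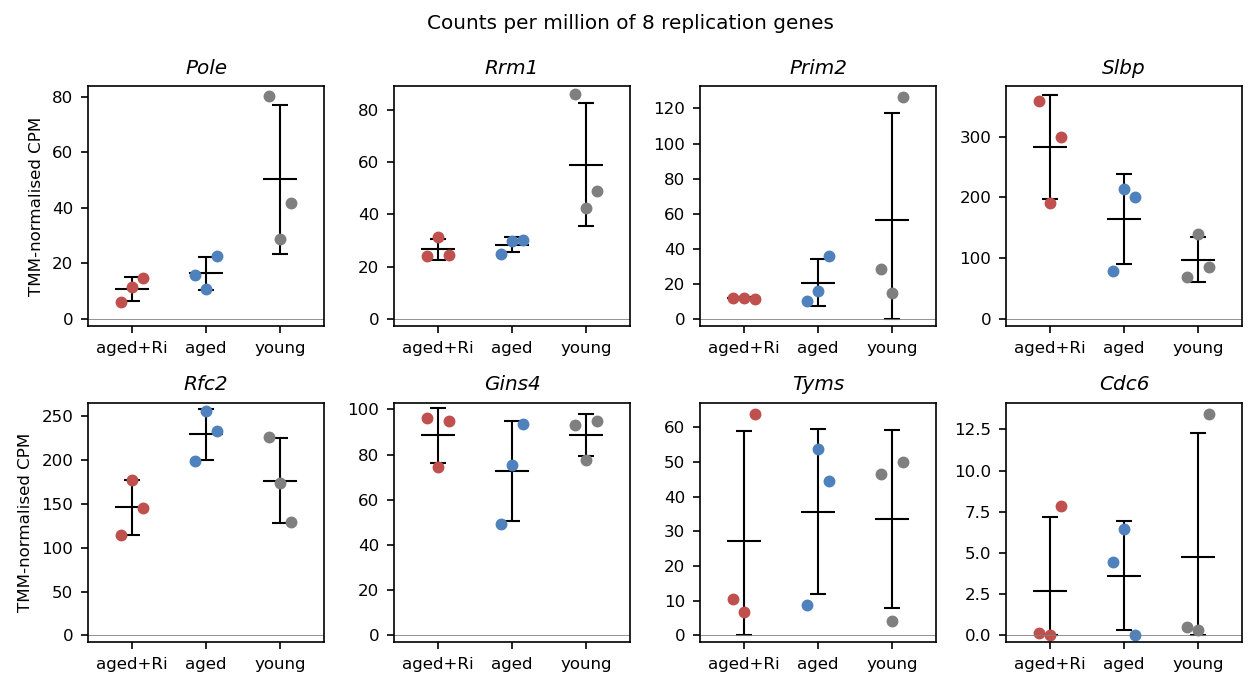
Points are the TMM-normalised CPM of 8 replication genes in each library, by group; the long bar is the mean and the error bars are 1 SD (n = 3), with the lower bar stopped at 0. The young values of Pole and Rrm1 lie above those of both aged groups, whereas Tyms and Cdc6 have high and low libraries in every group.

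The clamp, its loader and the single-strand binding protein RPA held 4 of the 9 genes over 50 CPM. Pcna had 103, 114 and 200.3 CPM in aged+Ri, 106, 123 and 137 in aged and 151, 102 and 72.2 in young, with groups that overlap. Rfc2, a clamp loader subunit (chromosome 5, 134581366 to 134601805, plus strand), had 115, 178 and 146 CPM in aged+Ri, 199, 256 and 233 in aged and 226, 174 and 129.6 in young. Each aged+Ri value lies below each aged value, and young spans both. Its log2 change in aged+Ri against aged was -0.65 ± 0.31, with an adjusted p of 0.564 in edgeR's quasi-likelihood test, the smallest unadjusted p of any of the 41 genes in that comparison. The value was -0.79 within batch 1 and -0.67 within batch 2. Rfc2 shares 952 bases of exon with Lat2, a membrane adaptor of blood cells on the other strand, and its counts are not whole numbers in any of the 9 libraries. The kit does not mark strand, so reads of the shared bases cannot be told apart. Lat2 itself had 20.2, 16.2 and 21.1 CPM in aged+Ri, 30.7, 53.3 and 28.8 in aged and 1.19, 15 and 15.5 in young, levels far below those of Rfc2. As for Rfc2, each aged+Ri value of Lat2 lies below each aged value. The part of the shared bases in the Rfc2 values was not tested.

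The remaining loader and RPA genes overlap between groups or came near to it. Rfc5 had 34.9, 5.49 and 41 CPM in aged+Ri, 15.01, 8.62 and 25.9 in aged and 16.4, 7.04 and 1.14 in young, so each group holds a low library. Rfc3 ran from 25.3 to 94.99 CPM and Rfc4 from 29.1 to 128 CPM, both highest in aged+Ri 3. Rpa1, the largest RPA subunit, had 37.1, 49.1 and 38.3 CPM in aged+Ri, 34.5, 20.6 and 23.2 in aged and 8.29, 51.9 and 30.1 in young. Its aged+Ri values lie above its aged values, by a log2 change of 0.67 ± 0.59 and an adjusted p of 0.827 (edgeR). Rpa2 had 58.5, 45.5 and 53.7 CPM in aged+Ri, 19.1, 37.8 and 57.2 in aged and 28.5, 4.36 and 43.6 in young, and its aged+Ri values lie above its young ones. For the joining of lagging-strand fragments, the ligase Lig1 had 3.54, 26.4 and 20.6 CPM in aged+Ri, 18.4, 13.8 and 19.3 in aged and 53.4, 9.85 and 38.9 in young. The lowest library of Lig1 is aged+Ri 1 and the highest young 1. The flap nuclease Fen1 stayed between 2.40 and 6.86 CPM in all 9 libraries.

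Of the deoxynucleotide genes, Rrm1 had lower levels in both aged groups than in any young library, without passing the test. Rrm2, Tyms and Tk1 shared their high and low libraries among the 6 of aged mice, but not among the young ones. Rrm1, the large subunit of ribonucleotide reductase (chromosome 7, 102441695 to 102469771, plus strand), had 24.2, 31.3 and 24.4 CPM in aged+Ri, 25.01, 29.7 and 30.3 in aged and 85.96, 42.5 and 48.8 in young. The 6 libraries of aged mice lie between 24.2 and 31.3 CPM, and every young library is higher. Its log2 change was -1.06 ± 0.44 in aged against young, adjusted p = 0.266, and -1.15 ± 0.44 in aged+Ri against young, adjusted p = 0.149 (edgeR, quasi-likelihood). Within batch the aged against young value of Rrm1 was -0.51 in batch 2 and -0.69 in batch 3, and the aged+Ri against young value was -0.62 in batch 2.

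Rrm2, the small subunit that pairs with Rrm1 in S phase, had 3.93, 4.59 and 21.3 CPM in aged+Ri, 4.15, 18.1 and 19.3 in aged and 14.8, 9.67 and 9.27 in young. Tyms, thymidylate synthase, had 10.5, 6.86 and 63.9 CPM in aged+Ri, 8.77, 53.8 and 44.4 in aged and 46.5, 4.13 and 50.1 in young. Tk1 had 0, 18 and 196 counts in aged+Ri, 3, 534 and 262 in aged and 28, 14 and 34 in young. All 3 genes are low in aged+Ri 1, aged+Ri 2 and aged 1, and high in aged+Ri 3, aged 2 and aged 3. In young they did not move together, as Tk1 stayed at 34 counts or fewer while Tyms was low in young 2 alone. Over the 4 deoxynucleotide genes the median deviation from the 9-library mean (log2) was -1.16, -0.85 and 1.36 in the aged+Ri libraries, -1.25, 1.12 and 1.03 in the aged libraries and 0.87, -0.22 and 0.74 in the young libraries. The 28 G2 and M phase genes, such as the kinase gene Plk1, showed -1.71, 0.11 and 0.78 in aged+Ri, -1.30, 0.61 and 1.15 in aged and -0.04, 0.31 and 1.51 in young. For both lists aged+Ri 1 and aged 1, the 2 libraries sequenced in batch 1 alone, are among the 3 lowest, and aged+Ri 3, aged 2, aged 3 and young 3 are above their mean. The medians over all tested genes stayed between -0.01 and 0.11 in the aged+Ri and aged libraries and between 0.22 and 0.31 in the young ones. The part of the batch in this pattern was not tested.

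**Figure D3:**
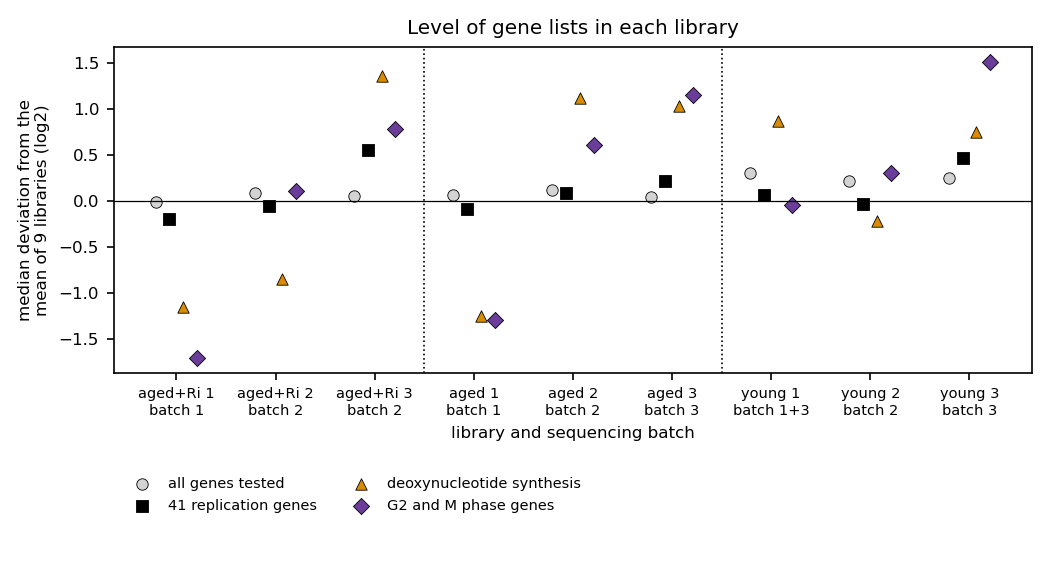
For each library, with its sequencing batch under its name, symbols give the median deviation of a gene list from its 9-library mean in log2 CPM. The G2 and M phase list reaches from -1.71 in aged+Ri 1 to 1.51 in young 3, and the deoxynucleotide list from -1.25 in aged 1 to 1.36 in aged+Ri 3. The 41 replication genes reach from -0.20 in aged+Ri 1 to 0.55 in aged+Ri 3.

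The regulators at the entry to S phase were among the lowest of the module, and their ratios rest on few reads. E2f1, an activating E2F factor, had 2, 14 and 2 counts in aged+Ri, 24, 140 and 17 in aged and 15, 31 and 81 in young. All aged+Ri counts of E2f1 lie below those of the other groups, and the CPM values do too, with 0.0561, 0.242 and 0.0565 in aged+Ri, 0.328, 2.53 and 0.270 in aged and 0.303, 0.791 and 2.31 in young. The log2 change was -3.09 ± 1.59 in aged+Ri against aged and -3.21 ± 1.60 in aged+Ri against young, with adjusted p-values of 0.595 against aged and 0.246 against young in edgeR's quasi-likelihood test. E2f8, a repressive E2F factor, had 1.57, 4.73 and 6.18 CPM in aged+Ri, 0.519, 4.81 and 5.15 in aged and 0.364, 1.33 and 0.570 in young, and its aged+Ri values lie above its young ones. Cyclin E2, Ccne2, had 9.52, 0.812 and 8.44 CPM in aged+Ri, 0.956, 7.70 and 0.811 in aged and 3.52, 0.102 and 9.87 in young, with both high and low libraries in each group. Cyclin E1, Ccne1, had 0, 87 and 0 counts in aged+Ri, 0, 10 and 0 in aged and 5, 124 and 26 in young. Where a library has 0 counts, up to 3 counts remain possible, which are between 0.0410 and 0.0855 CPM over the 9 libraries, and this limit covers counting error only. The fitted change of Ccne1 in aged+Ri against aged was 3.04 ± 2.33; it rests on aged+Ri 2, without which it was -4.67.

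Of the histone and chromatin assembly genes, Slbp had higher levels in every aged+Ri library than in any young one, without passing the test. Slbp, the stem-loop binding protein that processes the histone messages of S phase (chromosome 5, 33634952 to 33652574, minus strand), had 358, 190.0 and 299 CPM in aged+Ri, 79.6, 214.5 and 200.3 in aged and 68.3, 139 and 85.2 in young. The aged+Ri values lie above all young values and overlap the aged ones, of which aged 1 is low. Its log2 change was 1.53 ± 0.42 in aged+Ri against young, adjusted p = 0.0809, 0.78 ± 0.42 in aged+Ri against aged, adjusted p = 0.616, and 0.76 ± 0.42 in aged against young, adjusted p = 0.379 (edgeR, quasi-likelihood). Within batch 2 Slbp stood 0.77 higher in aged+Ri than in young, 0.15 higher in aged+Ri than in aged and 0.62 higher in aged than in young. Within batch 1 Slbp stood 2.17 higher in aged+Ri than in aged, and within batch 3 it stood 1.23 higher in aged than in young. The counts of Slbp are not whole numbers in any library. Chaf1b, a subunit of the chromatin assembly factor that follows the fork, had 48.5, 71.1 and 43.0 CPM in aged+Ri, 70.0, 43.8 and 38.4 in aged and 13.2, 64.1 and 8.41 in young. The aged+Ri and young values of Chaf1b overlap. In the fit of all libraries its log2 change in aged+Ri against young was 0.92 ± 0.65, adjusted p = 0.411 (edgeR, quasi-likelihood). Young 2 is the library of Chaf1b that differs from the other 2 young ones. The gene passed in that comparison without young 2, with an adjusted p of 0.0475 by edgeR's test, so this pass rests on leaving out that library.

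In aged against young, the question was which replication genes differ with age. By edgeR's quasi-likelihood test 0 of the 41 genes passed, where 5 of 15127 genes (0.0331%) did, all 5 higher in aged. Pole and Rrm1 had an unadjusted p under 0.05, both lower in aged, against 16.2% of all genes tested in either direction and 10.1% lower. The groups did not overlap for 3 genes, with Gins1 higher and Pole and Rrm1 lower in aged, against 24.7% of all genes, 8.58% higher and 16.1% lower. The median log2 change of the 41 genes was -0.07, against -0.13 for all genes, and 20 of the 41 were positive, against 45.3% of all genes. Within batch 2 that median was 0.29, and within batch 3 it was -0.08. DESeq2 passed 2 of the genes, Pole (adjusted p = 0.0416) and Rrm1 (adjusted p = 0.0472), and 744 genes in all, while limma-voom and edgeR's newer quasi-likelihood method passed 0 of the 41. Over all alternatives tried, the adjusted p ran from 0.0416 to 0.581 for Pole and from 0.0472 to 0.619 for Rrm1.

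In aged+Ri against aged, the question was whether the RhoA inhibitor moved replication genes of aged cells. Here 0 of the 41 genes passed, and so did 0 of all genes (0%) by edgeR's quasi-likelihood test. An unadjusted p under 0.05 was found for 0 of the 41 genes, against 9.14% of all genes. The groups did not overlap for 5 genes, with Gins3 and Rpa1 higher and Orc1, Rfc2 and E2f1 lower in aged+Ri, against 16.5% of all genes, 7.87% higher and 8.66% lower. The median log2 change of the 41 genes was 0.12, against -0.06 for all genes, and 23 of the 41 were positive, against 47.2% of all genes. Without aged+Ri 3 the median of the 41 genes was -0.18, and within batch it was -0.05 in batch 1 and 0.17 in batch 2. DESeq2 passed 320 genes in all and 0 of the 41, and limma-voom and edgeR's newer method passed 0 of the 41 as well.

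In aged+Ri against young, both age and inhibitor differ. By edgeR's quasi-likelihood test 0 of the 41 genes passed, while 219 of all genes did (1.45%). Slbp was higher and Pole, Prim2 and Rrm1 were lower at an unadjusted p under 0.05, which 23.4% of all genes reached, 9.06% higher and 14.4% lower. The groups did not overlap for 8 genes, of which Gins3, Rpa2, E2f8 and Slbp were higher and Prim2, Pole, Rrm1 and E2f1 lower in aged+Ri, against 32.3% of all genes, 12.4% higher and 19.9% lower. The median log2 change of the 41 genes was -0.0027, against -0.24 for all genes, and 20 were positive, against 42.6% of all genes. Within batch 2 that median was 0.03. DESeq2 passed 1862 of the 15127 genes in this comparison. Of the 41 genes it passed Pole (adjusted p = 0.0011), Rrm1 (0.0159), Prim2 (0.0268) and Slbp (0.0339), and limma-voom passed 0 of the 41. Over all alternatives tried, the adjusted p ran from 0.0011 to 0.324 for Pole, from 0.0159 to 0.557 for Rrm1, from 0.0268 to 0.59 for Prim2 and from 0.0339 to 0.226 for Slbp. The 3 comparisons share libraries, so their values for a gene are not independent of each other.

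**Figure D4:**
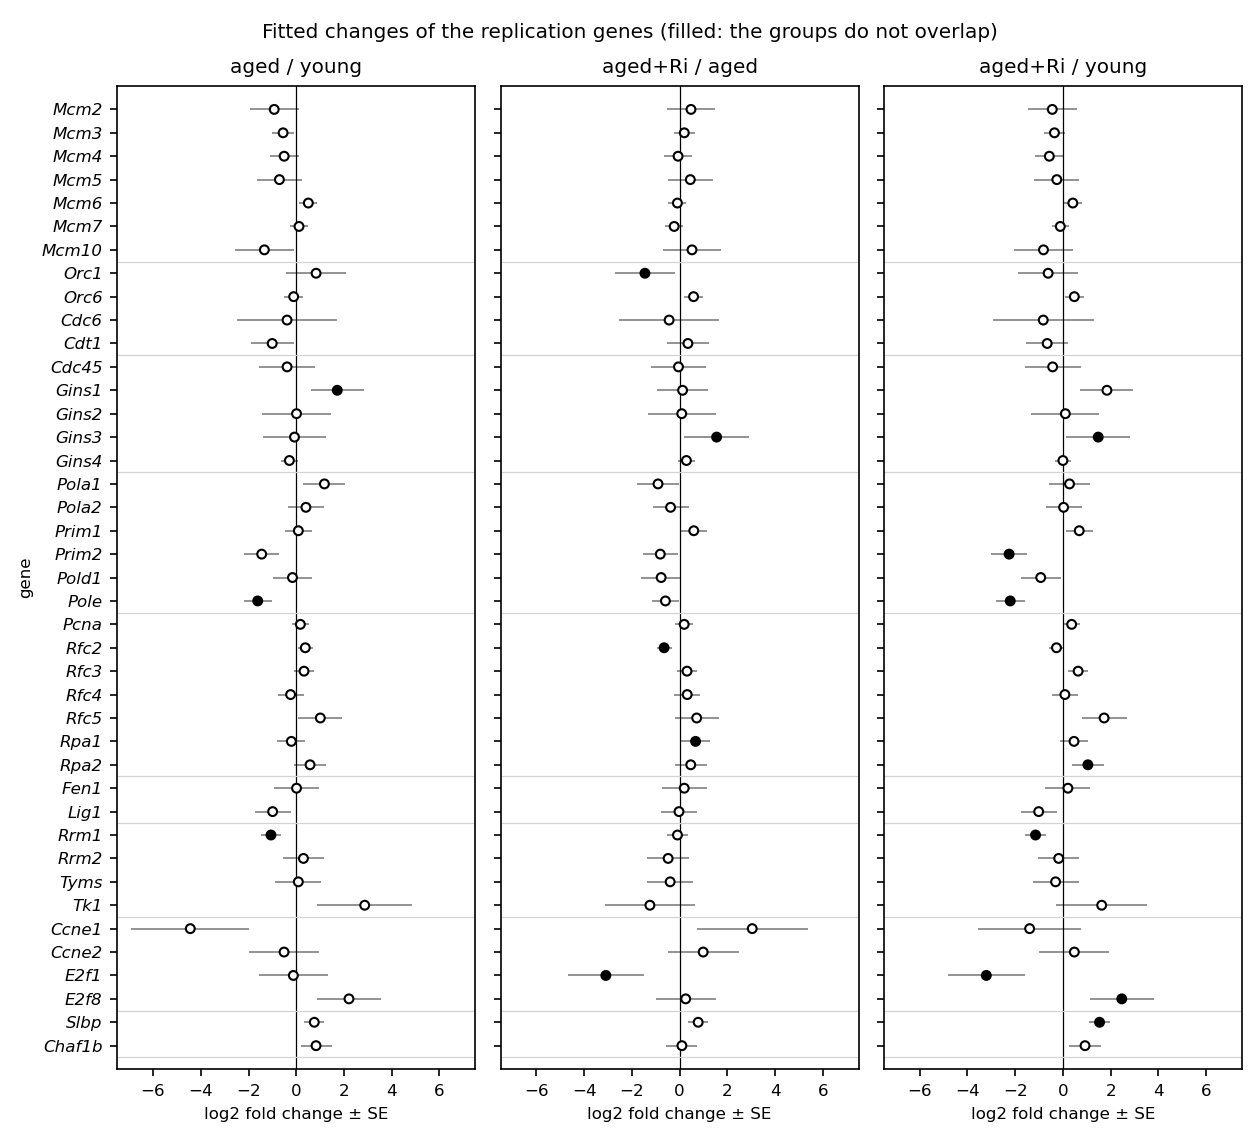
Points are the fitted log2 fold changes of the 41 replication genes in each comparison, with bars of 1 SE; filled points mark genes whose 3 libraries in each group do not overlap. Filled points number 3, 5 and 8 in the 3 panels and lie on both sides of 0.

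The spread between replicates followed the level. Of the 41 genes, 16 (39%) differed more than 10-fold between libraries of the same group, or were at 0 in some library of it, against 45.8% of all genes tested. This held for 0 of the 9 genes over 50 CPM, against 4% of all genes at that level, and for 8 of the 20 genes from 10 to 50 CPM (40%), against 25.5%. It held for 8 of the 12 genes under 10 CPM (66.7%), against 81.1%. The median SD of log2 CPM within groups was 1.08 for the 41 genes and 1.07 for all. Rfc2, Gins4 and Rrm1 lay at the steady end, and Cdc6, Tk1 and Ccne1 at the other.

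**Figure D5:**
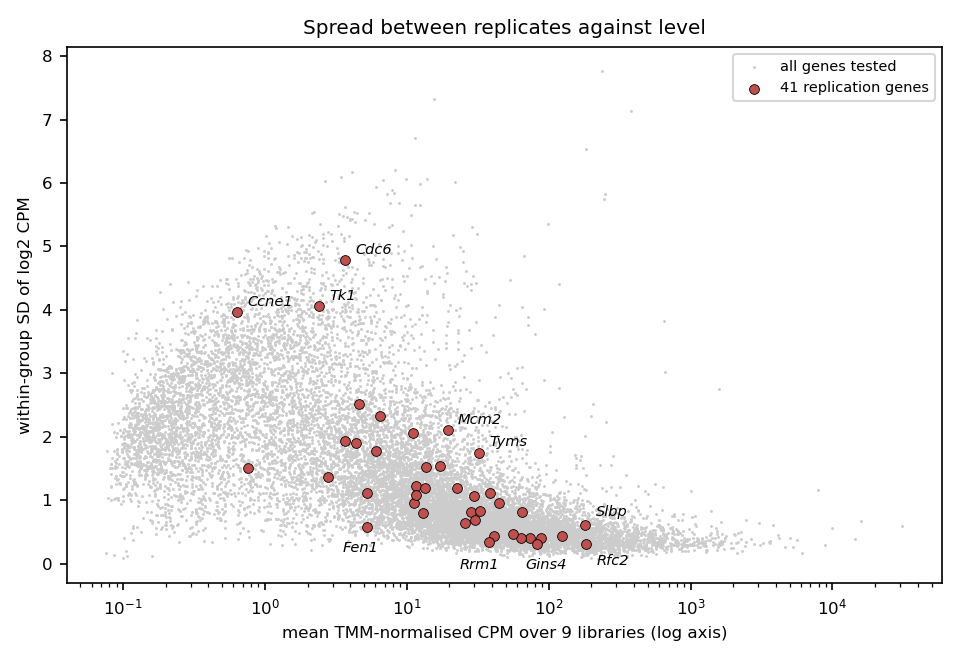
Each point is a gene, placed by its mean CPM over the 9 libraries (log axis) and by the SD of its log2 CPM within groups; red points are the 41 replication genes and grey points all genes tested. Cdc6, Tk1 and Ccne1 lie at the top, and Gins4, with an SD of 0.309, at the bottom of the red points.

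A further 55 replication genes outside the module were read in the same fit. In aged+Ri against young, E2f6 alone passed among them. E2f6, a repressor of the E2F family, had 60.4, 63.5 and 50.7 CPM in aged+Ri, 57.1, 60.2 and 17.4 in aged and 12.1, 9.69 and 10.7 in young. All aged+Ri and aged values lie above all young values. E2f6 rose in aged+Ri against young, with a log2 change of 2.43 ± 0.52 and an adjusted p of 0.0394 (edgeR, quasi-likelihood), higher in 3 of 3 libraries. That call was lost on leaving out any library but aged 3 and young 3, with adjusted p-values of 0.127, 0.0794 and 0.14 without aged+Ri 1, 2 and 3, 0.0687 and 0.0662 without aged 1 and 2, and 0.0756 and 0.0703 without young 1 and 2. The 55 genes had 0 passes in aged against young and 0 in aged+Ri against aged by edgeR's test. At an unadjusted p under 0.05 were 9 of the 55 in aged against young (16.4%, against 16.2% of all genes), 1 in aged+Ri against aged (1.82%, against 9.14%) and 11 in aged+Ri against young (20%, against 23.4%). Their median log2 changes were -0.42, 0.04 and -0.33 in aged against young, aged+Ri against aged and aged+Ri against young; without young 3 the aged against young value was 0.10 and the aged+Ri against young value 0.0056, and without aged 1 the aged against young value was -0.13. Among the genes nearest the threshold in aged+Ri against young, Orc5, an origin recognition subunit, had 30.9, 23.8 and 75.4 CPM in aged+Ri, 32.8, 23.99 and 69.4 in aged and 6.77, 2.98 and 12 in young, with an adjusted p of 0.0737 in edgeR's test. Rpa3, the smallest RPA subunit, had 76.2, 132 and 139 CPM in aged+Ri, 169, 254 and 171.5 in aged and 369, 309 and 236 in young, with an adjusted p of 0.056. Orc5 values of both aged groups exceed the young ones. For Rpa3 the aged+Ri values lie below all aged and all young ones, while aged and young overlap.

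Upstream of E2F, the G1 kinases Cdk4 and Cdk6 went opposite ways in aged+Ri against young. Cdk4 had 216, 243 and 316 CPM in aged+Ri, 206, 239.8 and 293 in aged and 70.7, 127 and 93.2 in young. Cdk6 had 21.9, 40.6 and 22.99 CPM in aged+Ri, 103, 120.0 and 115 in aged and 123, 208.5 and 132 in young. Cdk6 is lowest in the aged+Ri libraries, whereas Cdk4 is lowest in the young ones. Cdk4 rose by a log2 change of 1.41 ± 0.32 (adjusted p = 0.0461) and Cdk6 had a log2 change of -2.44 ± 0.38 (adjusted p = 0.016) in edgeR's quasi-likelihood test, each in 3 of 3 libraries, and they were the 2 of the 11 tested G1 genes that passed. The Cdk6 call was lost without aged+Ri 1 (adjusted p = 0.0623) or aged+Ri 3 (0.0916), and that of Cdk4 was lost without any library but young 2, at adjusted p-values from 0.0531 to 0.154. Of the 28 G2 and M phase genes, 0 passed in any comparison by edgeR, with 2 at an unadjusted p under 0.05 in aged against young (16.2% of all genes), 1 in aged+Ri against aged (9.14% of all genes) and 2 in aged+Ri against young (23.4% of all genes). In aged+Ri against aged, 25 of these 28 had a negative log2 change, against 52.8% of all genes. Bub1 went the other way, with a log2 change of 1.76 ± 1.11 and an adjusted p of 0.686 (edgeR, quasi-likelihood). Its levels were 3.31, 10.0 and 15.4 CPM in aged+Ri, 0.123, 2.51 and 5.83 in aged and 11.1, 13.3 and 26.1 in young.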

How the data were processed

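Per the labels' protocols, RNA of sorted cells was amplified with SMART-Seq v4, which does not mark strand, and made into Nextera XT libraries. The table deposited by the authors holds estimated counts, since 71.6% to 80.9% of the values of a library are whole numbers within 0.005; they were rounded to whole numbers here. The submitters' processing notes name cutadapt 1.18, STAR 2.7.0, SAMtools 1.14, R 4.2.0, featureCounts and the build GRCm38. Of the 41 genes, 11 share exon bases with another gene of the table, so their counts are uncertain: Mcm7, Orc6, Cdc45, Gins2, Rfc2, Rfc4, Rfc5, Fen1, Lig1, Tk1 and Ccne2.

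Genes were filtered by edgeR's filterByExpr with the groups, scaled by TMM and fitted in 1 quasi-likelihood model of all 9 libraries (glmQLFit of edgeR 4.0.16, robust, in R 4.3.3, with 6 residual degrees of freedom). Two-sided F-tests were adjusted by Benjamini-Hochberg over the 15127 genes tested, with a threshold of 0.05. All pairs of libraries differed by more than sampling noise (smallest chi-square per degree of freedom 205.4). Alternatives were DESeq2 1.42.0 and its size factors, limma-voom (limma 3.58.1) with sample weights, edgeR's newer method, other filters, only the groups compared, a replicate block, the sequencing batch, young 1 as the only young library, and each library left out.

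With 3 libraries per group, a count of 0 passes does not show that no gene differed. Any of the 41 genes could be named. Values in every library were given for the 8 with the smallest p in each comparison and the most abundant of each role, and up to 4 genes by smallest p of each other list. Of 57 other replication genes listed, 55 were matched. The members and lists were chosen with earlier results of these data known. Gene coordinates and exon lengths are from the GENCODE annotation of GRCm38.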

Additional observations from a re-analysis of the deposited data

How the results depend on the processing

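With DESeq2, 744, 320 and 1862 genes passed in aged against young, aged+Ri against aged and aged+Ri against young, against 5, 0 and 219, and of the 41 genes 2, 0 and 4 passed, with 4, 1 and 7 at an unadjusted p under 0.05. With limma-voom 18, 55 and 626 genes passed (3 and 7 of the 41 at an unadjusted p under 0.05 in the last 2 comparisons), and with edgeR's newer method 21, 4 and 425. Without a filter 20 and 11 genes passed in the first 2 comparisons, and 1 of the 41 had an unadjusted p under 0.05 in aged against young. With only the groups compared 1, 2 and 57 genes passed. In aged+Ri against aged, 1 of the 41 had an unadjusted p under 0.05 with the stricter filter, with only the groups compared, or with the batch as a covariate, which passed 16 genes. The batch as a covariate set the median of the 41 genes in aged against young at 0.226, and within batch 2 it was 0.292. For none of the alternatives was the share of all genes at an unadjusted p under 0.05 counted. Their counts of the 41 genes at that p therefore have no background to be read against.

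The labels do not say whether aged and aged+Ri libraries of the same number come from the same mice. The numbers were not treated as pairs in the main fit. Deviations of same-numbered libraries correlated between -0.0791 and 0.158, and those of unlike numbers between -0.282 and 0.21. With 3 libraries per group these correlations cannot decide whether mice were shared. With the replicate block 6, 2 and 226 genes passed and 0 of the 41 in each comparison. With young 1 as the only young library, assumed to vary like the other groups, 358 genes passed in aged against young and 735 in aged+Ri against young, 9 and 8 of the 41 had an unadjusted p under 0.05, and in aged+Ri against young Pole and Mcm2 passed, 2 of the 41 (young 1 is the lowest library of Mcm2), and the median was 0.563. Chosen after the data were seen, leaving out aged+Ri 3 and young 3 together passed 36 genes in aged against young and 98 in aged+Ri against young, and 0 of the 41.

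With each library left out in turn, 2 to 80, 0 to 6 and 18 to 532 genes passed in the 3 comparisons, and of the 41 genes 0, 0 and 0 to 1. At an unadjusted p under 0.05 were 1 to 6, 0 to 1 and 3 to 6 of the 41, and their medians ran from -0.144 to 0.210, -0.176 to 0.361 and -0.307 to 0.260. The fewest passes in aged+Ri against young came without aged+Ri 3 (18) and aged+Ri 1 (34), and the most without young 3 (532). Reversed were Ccne1 in aged+Ri against aged, which ran from -4.67 to 7.64 with a library left out and was -1.57 within batch 2, and Prim2 in aged against young, at 0.133 within batch 2; the cause was not tested. The Cdk4 call was also lost with DESeq2 size factors (adjusted p = 0.0606), without a filter (0.054), with the stricter filter (0.0514), with only the groups compared (0.0885), with the batch as a covariate (0.116) and without aged+Ri 3 and young 3 together (0.184). That of E2f6 was lost with limma-voom (adjusted p = 0.0635), with only the groups compared (0.0736), with the batch as a covariate (0.197), with young 1 as the only young library (0.0721) and without aged+Ri 3 and young 3 together (0.103), and that of Cdk6 with only the groups compared (0.0509).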

Other observations

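Some genes that act beside the 41 were also far apart between groups without passing the threshold of edgeR's quasi-likelihood test. Cdc7, the kinase that fires loaded origins, had 1.52, 5.51 and 8.39 CPM in aged+Ri, 11.5, 7.91 and 19.1 in aged and 18.5, 32.6 and 56.3 in young. All aged+Ri values of Cdc7 lie below all young values, and its adjusted p in aged+Ri against young was 0.0794 (edgeR). Pole3, a small histone-fold subunit of polymerase epsilon, had 60.0, 52.0 and 61.1 CPM in aged+Ri, 47.2, 93.7 and 61.9 in aged and 40.1, 20.4 and 27.0 in young. Its 6 libraries of aged mice lie above the 3 young ones, the opposite order to Pole, the catalytic subunit of the same enzyme; the adjusted p of Pole3 in aged against young was 0.221 (edgeR). Plk1, a kinase of mitotic entry, had 1.04, 2.90 and 3.16 CPM in aged+Ri, 5.89, 5.10 and 19.2 in aged and 23.1, 10.9 and 15.3 in young, and each aged+Ri value lies below each value of the other groups. Its adjusted p was 0.494 in aged+Ri against aged and 0.105 in aged+Ri against young (edgeR). The CDK inhibitor gene Cdkn1a had 108, 86.8 and 81.7 CPM in aged+Ri, 33.2, 11.6 and 54.2 in aged and 4.06, 39.6 and 84.0 in young; the aged+Ri values lie above the aged ones and overlap the young ones, with an adjusted p of 0.606 in aged+Ri against aged (edgeR).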
